A study of Mus musculus with 2 samples.

Results

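The provisional and wound matrix glycoproteins are secreted proteins that cells lay down in embryonic and injured tissue, and several of them are scarce or differently arranged in resting skin. The genes taken by name were Fn1, Tnc, Vcan, Pxdn, Tgfbi, Megf6, Postn, Thbs1, Sparc and Spp1, and every non-control probe that carried one of these names on the arrays was kept, which gave 17 probes for 10 genes of the 34820 gene names measured. The genes were chosen partly from the log2 ratios of these same arrays, so their ratios and adjusted p-values below are a description of these genes and support nothing further. Each of the 2 microarrays compared the epidermis of 1 FVB/N pup with both transgenes, K14-rtTA and TRE-Sox11-FLAG (SOX11-induced), with that of 1 FVB/N littermate carrying K14-rtTA alone (control), so 4 mice were studied. Both pups of a pair were at postnatal day 4.5 and received doxycycline (Dox) for 12 h, so K14-rtTA and the drug were shared by both groups. The keratin 14 promoter drives the Dox-dependent activator rtTA in basal keratinocytes, and per the methods the dorsal epidermis was split from the dermis with dispase, in gender-matched pairs. The comparison asks which transcripts differ in postnatal epidermis after a short induction of SOX11, a transcription factor of the embryonic epidermis.

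A matrix of this kind is built around fibronectin, which cells assemble into fibrils through integrins, and versican, which holds hyaluronan and water in a loose gel. Thrombospondin 1, tenascin C, osteopontin (Spp1), SPARC and periostin are matricellular proteins, which act on adhesion and signalling more than they bear load. In healing skin such proteins come both from dermal fibroblasts and from keratinocytes of the wound edge, and TGF-β is a well known inducer of several of them.

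RNA of the SOX11-induced pup was labelled with Cy5 and RNA of the control with Cy3 on both arrays, so a positive log2 ratio means more signal in SOX11-induced epidermis. Because the dyes ran the same way on both arrays, a bias of 1 dye at a given probe and a true difference between genotypes cannot be told apart, and the colour swap that the methods describe does not appear in the labels. Both arrays lay on 1 slide and were read in 1 scan. All 10 keratinocyte markers were above background in both groups, of which Krt15 fell (mean log2 ratio -1.03, adjusted p = 0.0062 in limma) and the others did not pass. Of the dermal markers, 6 of 12 fibroblast genes (Lum, Dpt, Pdgfra, Pdgfrb, Twist2 and Clec3b) and 8 of 8 dermal papilla genes were at background in every channel. The other 6 fibroblast genes (Col1a1, Col1a2, Col3a1, Col6a3, Dcn and Mfap4) were above background in every channel, of which Dcn fell (mean log2 ratio -0.79, adjusted p = 0.028 in limma) and the others did not pass. The summed fibroblast signal in SOX11-induced over control epidermis had log2 ratios of -0.06 and 0.24 in pairs 1 and 2. Single fibroblast genes differed more between the pairs, such as Col6a3 (1.31 and -0.06), Col1a2 (-0.17 and 1.14) and Col3a1 (-0.17 and 0.92). The summed signal of 9 hair shaft keratins differed more between pups than any other marker list, with log2 ratios of 2.26 (pair 1) and -0.32 (pair 2). Fewer cells of a type and less RNA per cell cannot be told apart in whole epidermis. The 2 Sox11 probes had mean log2 ratios of -0.22 and -0.12 and were at background in every channel, and whether they lie in the transgene is not given in the sources used here, so they do not check the labels.

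The probes are 60 bases long, and the opening 30 bases of those on which the results turn are shown so that each value can be tied to a stretch of the transcript. Positions are those of the array files, on mouse build mm9, and the letters run 5′ to 3′ as the files give them, with no part singled out in capitals. An annotation of exons on this build was not used here, so the part of the transcript that a probe covers is not stated. The 3 probes of Vcan lay on the minus strand, and the opening of each read as follows.
Vcan probe 1 (chr13:89851810-89851869): ttgagaaccagacatgcttccctctccctg
Vcan probe 2 (chr13:89850072-89850131): cggcaggctttaggttgtctatgtaaatga
Vcan probe 3 (chr13:89795080-89795139): ttcatcctaatgtgtactagagcacagaaa
The 3 probes of Pxdn and both probes of Megf6 lay on the plus strand.
Pxdn probe 1 (chr12:30672900-30672959): ataatttagaatgcttagctgcttaatttt
Pxdn probe 2 (chr12:30700635-30700694): ctctggccctcacttcatgttagacttctc
Pxdn probe 3 (chr12:30702457-30702516): aaagaggtgtttgcactttgtaatgatacc
Megf6 probe 1 (chr4:153648499-153648558): cagcaagtgggatcaagggttttgtaaaac
Megf6 probe 2 (chr4:153649380-153649439): atcatgaggagaactgaaattttccttcta
Fn1, on the minus strand, and Tgfbi and Thbs1, on the plus strand, had 1 probe each.
Fn1 (chr1:71632116-71632175): ggtgattatttttataagcacatgccaacg
Tgfbi (chr13:56740460-56740519): aaatgtgaatcaagcagtccggcattctgg
Thbs1 (chr2:117952585-117952644): gcctgtagagttagtatttctggtttttat

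Fibronectin, versican, peroxidasin and thrombospondin 1 rose in SOX11-induced epidermis, while Tgfbi and Megf6 fell, and tenascin C, periostin, SPARC and osteopontin did not pass the test. Of the 17 probes, 6 were higher and 2 lower at an adjusted p under 0.05 in limma's moderated test over all 55676 probes, against 2.9% and 1.35% of all probes. A probe was called changed when its mean log2 ratio also passed 1.5 in either direction, and by this rule 3 member probes (Vcan, Pxdn and Thbs1) were called higher and 2 (Tgfbi and Megf6) lower, against 0.365% and 0.0862% of all probes. All 8 probes that passed the adjusted p were among the 12 member probes that rose above background in 1 or both channels of each array, and among all probes of that kind 6.61% were higher and 3.11% lower. The median log2 ratio of the 17 probes was 0.35, beside 0.01 for all probes. In 13 of the 17 probes the sign was the same in both pairs, which held for 65.2% of all probes. With 2 arrays an exact sign-flip test cannot give a p under 0.5, so every adjusted p rests on the variance that limma shares across probes. None of the 17 probes passed where the processed signals of the scanner software were used (lowest adjusted p = 0.24 in limma), and under median centring Tgfbi and Megf6 probe 1 had mean log2 ratios of -1.48 and -1.45 and were not called.

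**Figure D1:**
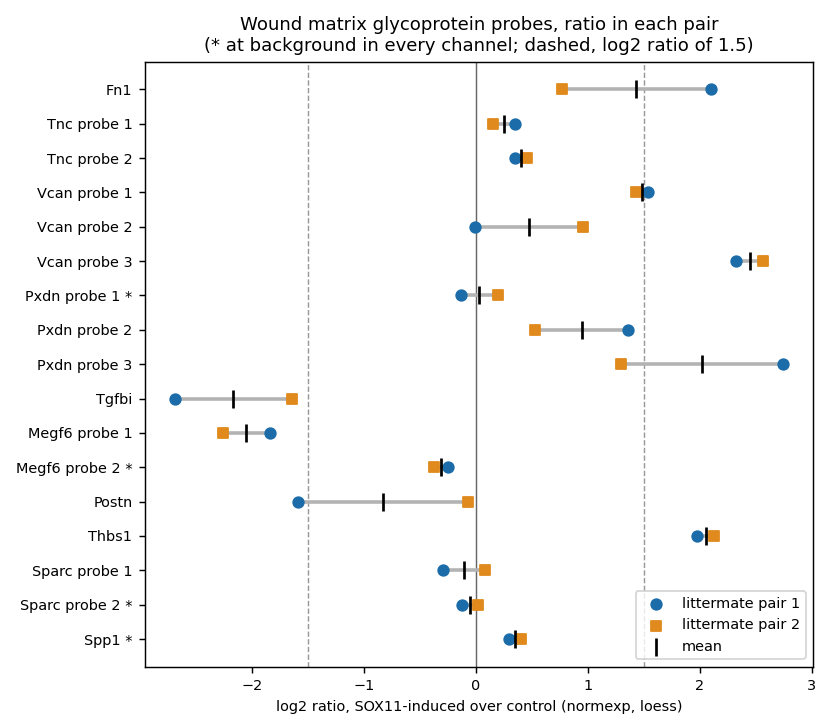
The log2 ratio of SOX11-induced over control epidermis (x axis) is plotted for each of the 17 probes (rows), with a circle for littermate pair 1, a square for pair 2 and a tick for their mean. Vcan probe 3 and Thbs1 lie beyond 1.5 in both pairs and Tgfbi and Megf6 probe 1 beyond -1.5 in both, and Fn1, Pxdn probe 3, Tgfbi and Postn differ between the pairs by more than 1.

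Fn1 encodes fibronectin, the fibril-forming glycoprotein that keratinocytes crawl on when they close a wound. Its log2 brightness was 8.23 in the control and 10.33 in the SOX11-induced pup of pair 1, and 9.66 and 10.42 in those of pair 2. Both SOX11-induced pups were above both controls. Pair 1 thus had a log2 ratio of 2.10 and pair 2 one of 0.76, averaging 1.43 ± 0.94 (SD, n = 2; adjusted p = 0.020 in limma), a 2.70-fold rise that stayed under the threshold of 1.5 on the log2 scale. The pairs differed in their controls, by 1.43 on the log2 scale, while the SOX11-induced pups differed by 0.09. With an intensity-dependent, robust prior in limma the adjusted p was 0.39 for Fn1.

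Thbs1 encodes thrombospondin 1, a trimeric matricellular protein that binds CD36 and CD47 and can release TGF-β from its latent complex. Its log2 brightness rose from 7.17 to 9.15 in pair 1 and from 7.53 to 9.66 in pair 2. The SOX11-induced pups were above both controls by more than the distance between pups of a group. This gave a mean log2 ratio of 2.05 ± 0.11 (SD, n = 2; adjusted p = 0.00018 in limma), a 4.15-fold rise, and 90 of the 55676 probes had a higher mean.

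Vcan encodes versican, a large chondroitin sulphate proteoglycan whose transcripts differ in the exons that carry the sugar chains. Probe 3, which lies 56730 bases downstream of probe 1, showed a log2 brightness of 6.43 in the control and 8.76 in the SOX11-induced pup of pair 1, and 5.96 and 8.53 in those of pair 2. Its mean log2 ratio was 2.45 ± 0.17 (SD, n = 2; adjusted p = 9.4e-05 in limma), a 5.45-fold rise on the fitted scale. Its control of pair 2 was not well above background, so that the ratio of pair 2 is set against a background signal and the control was measured in pair 1 alone. Probe 1 rose from 6.94 to 8.48 in pair 1 and from 6.95 to 8.38 in pair 2. Its mean log2 ratio of 1.48 ± 0.08 (SD, n = 2; adjusted p = 0.00096 in limma) lay just under the threshold, and its 2.79-fold rise was the most alike between pairs of the Vcan probes. Probe 2, only 1738 bases downstream of probe 1, gave -0.01 in pair 1 and 0.95 in pair 2 on the log2 scale (adjusted p = 0.26 for their mean of 0.47 in limma), and it was above background in a single channel, that of the SOX11-induced pup of pair 2. The array files name at most 4 accessions for a probe, so a transcript that is not named may still be covered. For probe 2 they name 1 RefSeq transcript, which is also among the 4 named for probe 1 and not among the 4 named for probe 3. The probes of this gene thus gave 3 different ratios, and whether transcripts changed unequally was not tested.

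Pxdn encodes peroxidasin, a secreted peroxidase that forms sulfilimine bonds between collagen IV molecules of the basement membrane. Probe 3 had a log2 brightness of 6.62 in the control and 9.36 in the SOX11-induced pup of pair 1, and 7.70 and 9.00 in those of pair 2. Both SOX11-induced pups were above both controls, and the controls differed by 1.08 on the log2 scale against 0.36 for the SOX11-induced pups. Its mean log2 ratio was 2.02 ± 1.02 (SD, n = 2; adjusted p = 0.0050 in limma), a 4.06-fold rise made of 6.68-fold in pair 1 and 2.46-fold in pair 2, with an adjusted p of 0.30 under the intensity-dependent, robust prior. Probe 2, which lies 1822 bases upstream of probe 3, rose in the same direction, by 1.36 and 0.53 on the log2 scale, which averaged 0.94 ± 0.59 (SD, n = 2; adjusted p = 0.035 in limma). Its control of pair 1 was not well above background, and the adjusted p was 0.075 with median spot brightness, 0.074 with the series table and 0.060 over probes above background. Probe 1, 27735 bases upstream of probe 2, was at background in every channel and had log2 ratios of -0.13 and 0.19. Of the accessions named for probe 1 none is a RefSeq transcript, whereas the other probes have 1.

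**Figure D2:**
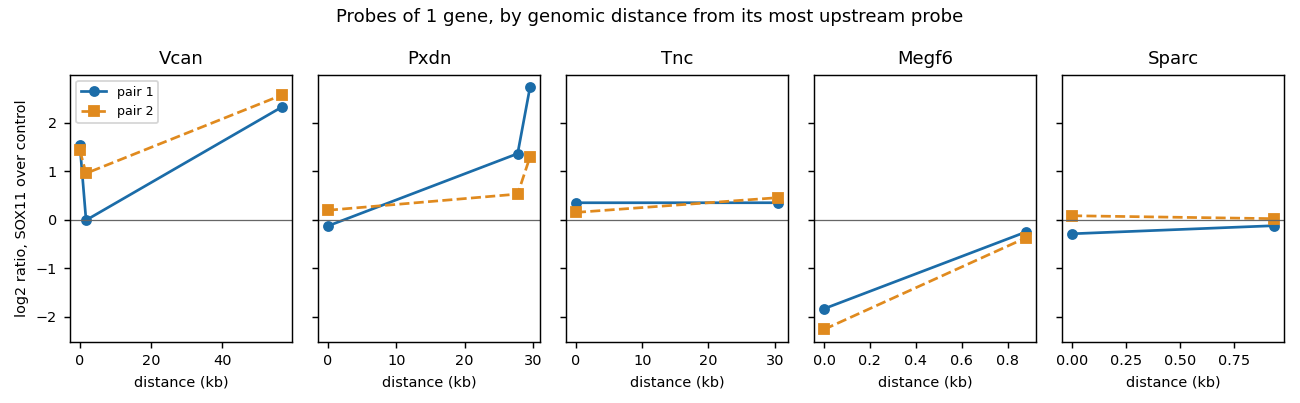
For the 5 genes with several probes, the log2 ratio of each probe (y axis) is plotted against its genomic distance in kb from the most upstream probe (x axis), with circles for pair 1 and squares for pair 2. The Vcan ratios fall from probe 1 to probe 2 and are highest at probe 3, the Pxdn ratios are highest at the most downstream probe, and the second Megf6 probe, at background in every channel, sits near 0.

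Tgfbi encodes an adhesion protein with fasciclin domains that was named for its induction by TGF-β. Its log2 brightness was 12.79 in the control and 10.10 in the SOX11-induced pup of pair 1, and 12.82 and 11.17 in those of pair 2. The controls differed by 0.03 and the SOX11-induced pups by 1.07, the reverse of Fn1 and Pxdn, where the controls were the farther apart. On average the log2 ratio was -2.17 ± 0.73 (SD, n = 2; adjusted p = 0.0011 in limma), a 4.49-fold fall, and 4 probes on the array had a lower mean. The adjusted p was 0.14 with the intensity-dependent, robust prior.

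Megf6 encodes a secreted protein made of many EGF-like repeats. Probe 1 fell from a log2 brightness of 10.66 to 8.82 in pair 1 and from 10.10 to 7.84 in pair 2. Both SOX11-induced pups were below both controls. The log2 ratios averaged -2.05 ± 0.30 (SD, n = 2; adjusted p = 0.00028 in limma), a 4.14-fold fall, and 7 probes had a lower mean. Probe 2, 881 bases downstream, was at background in every channel, with log2 ratios of -0.25 and -0.37, and bears on no change.

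**Figure D3:**
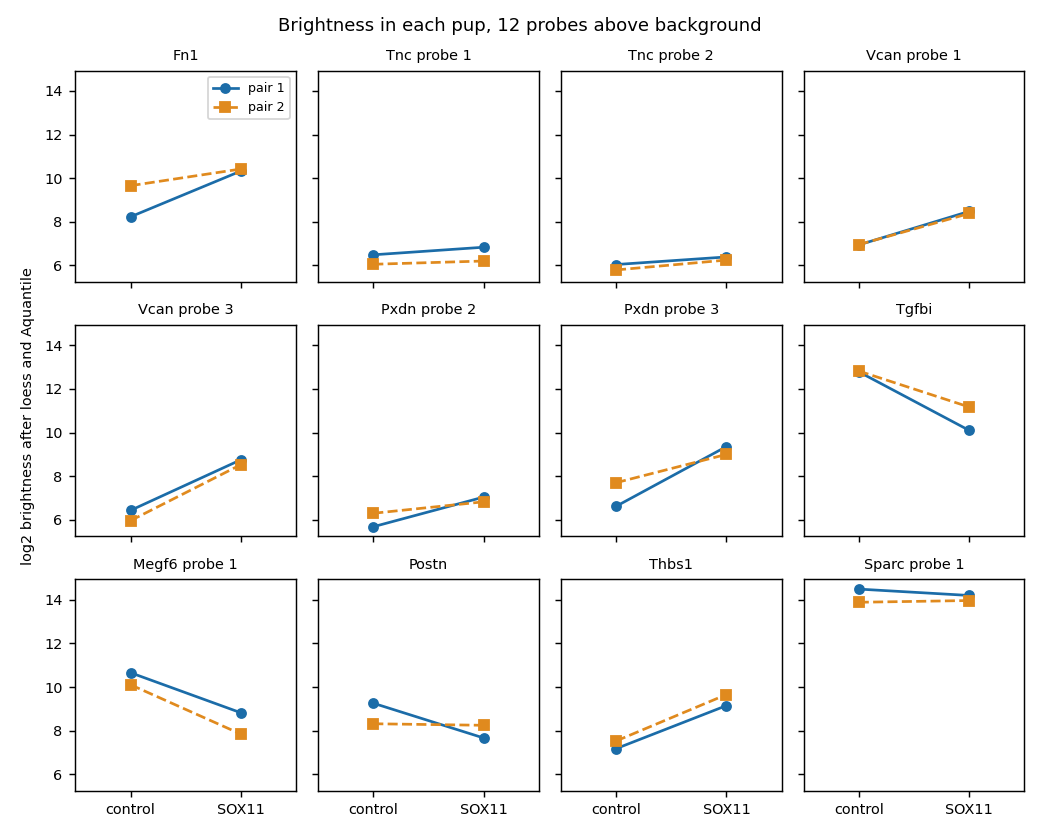
Log2 brightness after loess and Aquantile normalization (y axis) is plotted in each pup for the 12 probes above background, with a line joining the control and the SOX11-induced littermate of a pair (circles, pair 1; squares, pair 2). The lines of Fn1 and Pxdn probe 3 start farther apart in the controls than they end in the SOX11-induced pups, those of Tgfbi start together and part, and brightness is to be read within a panel and not between probes.

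Postn encodes periostin, a fasciclin domain protein related to Tgfbi. Its log2 brightness was 9.26 in the control and 7.66 in the SOX11-induced pup of pair 1, and 8.32 and 8.25 in those of pair 2. The mean log2 ratio was -0.83 ± 1.08 (SD, n = 2; adjusted p = 0.15 in limma), made of a 3.02-fold difference in pair 1 and a 1.05-fold difference in pair 2, and the test was not passed. Of the 17 probes, 4 (those of Fn1, Postn, Pxdn probe 3 and Tgfbi) differed between the pairs by more than 1 on the log2 scale, which was the case for 1.43% of all probes and 2.33% of those above background. The same pairs also differed in hair shaft keratins and in single fibroblast markers, by the values given above. The part of those differences in these 4 genes was not tested.

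**Figure D4:**
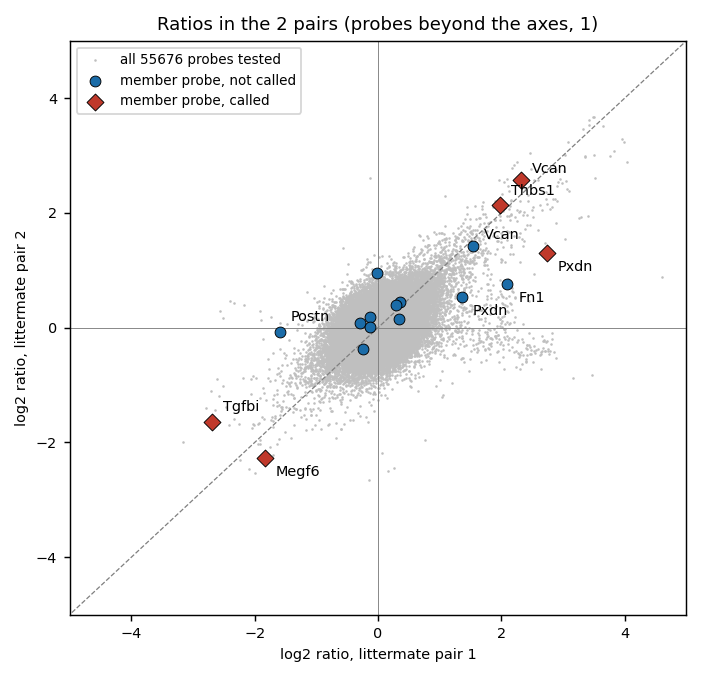
The log2 ratio in pair 1 (x axis) is plotted against that in pair 2 (y axis) for all 55676 probes in grey and the 17 member probes in blue, or as red diamonds where called. Vcan probes 1 and 3 and Thbs1 lie near the dashed line of equal ratios, Fn1 and Pxdn probes 2 and 3 lie below it, and Postn lies near 0 in pair 2.

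Tnc encodes tenascin C, a six-armed glycoprotein of embryonic and wound stroma. The 2 probes, on the minus strand at chr4:63674248-63675011 and chr4:63643728-63643787, were above background in every channel. The former covers 764 bases of the genome with its 60 bases, so it spans an interval that the probe itself does not hold. Its log2 ratios were 0.35 and 0.15, and those of the other probe, 30520 bases downstream, were 0.35 and 0.45. The means of 0.25 ± 0.14 and 0.40 ± 0.07 (SD, n = 2; adjusted p = 0.39 and 0.17 in limma) did not pass the test.

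Sparc encodes a calcium-binding, collagen-binding protein known also as osteonectin. The probe at chr11:55208939-55208998 on the minus strand had a log2 brightness of 14.49 in the control and 14.20 in the SOX11-induced pup of pair 1, and 13.89 and 13.97 in those of pair 2. Its mean log2 ratio was -0.11 ± 0.26 (SD, n = 2; adjusted p = 0.75 in limma) after loess, and the value was 0.68 (adjusted p = 0.014) where each array was centred on its median instead, so its direction turns with the scaling. The other probe, 936 bases downstream, was at background in every channel. Spp1 encodes osteopontin, a cytokine-like matrix protein of bone and wounds. Its probe at chr5:104868502-104868561 on the plus strand was at background in every channel, with log2 ratios of 0.30 and 0.40, so a change of Spp1 was not measurable on these arrays.

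The letters ACAAAG and ACAATG, cores of the sites that SOX proteins are known to bind, were searched on both strands of promoter windows from RefSeq on build GRCm38, each from 250 bases before to 50 after a start of transcription. At a given position the 2 motifs cannot both match. They stood in 18.7% and 12.6% of 32851 windows, and at least 1 of them in 28.6%. For 8 members there were 11 windows, and Fn1 and Thbs1 had none, so they were not searched. A match stood in 3 of the 11, of Spp1 and Tgfbi, against 28.6% of all windows. Each match was to the reverse complement of ACAAAG. The match in Tgfbi begins 156 bases upstream of the start on the plus strand, and is shown in capitals with the 12 bases on either side, because Tgfbi was the member with the lowest ratio.
Tgfbi promoter (GRCm38, chr13:56609418-56609447): tttggacccgcaCTTTGTgcgaagtgggag
The windows of Vcan, Pxdn, Megf6, Tnc, Postn and Sparc held neither string of letters. Binding was not measured on these arrays, and a match or its absence is a description of letters. From chromatin immunoprecipitation in keratinocytes and knockout expression, the paper counts Vcan and Pxdn among the direct targets of SOX11 and SOX4.

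The other genes of this matrix were taken in 7 lists (related glycoproteins, proteoglycan partners, receptors, proteases, cross-linking enzymes, TGF-β signalling and collagens), each gene by its brightest probe. Of 192 measured genes, 120 were above background in 1 or both channels of each array, beside 16341 of 34820 over all genes. Among the 192, 10 rose and 18 fell at an adjusted p under 0.05. By the same rule 3.42% were higher and 1.72% lower over all genes, and 6.61% and 3.11% over all probes above background. The median log2 ratio of the 192 was -0.02 beside 0.00 over all genes. Where each array was centred on its median in place of loess, the balance turned over, to 56 higher and 19 lower, with the median of all probes above background itself moving from 0.04 to 0.53. Dimmer probes of Smad3, Smad4, Ltbp1, Hspg2, Bcan, Fam20c and Npnt did not pass, though the brightest did. Of the 28 genes that passed, none passed with the processed signals, 21 passed with median centring and 24 with median spot brightness or the series table, and none changed its sign under these settings.

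Among 50 related glycoproteins, 1 rose and 5 fell, with a list median of -0.06. Thbs2, the relative of Thbs1, rose by a mean log2 ratio of 1.00 ± 0.20 (SD, n = 2), and because its controls were not well above background this stands as at least 1.80-fold higher (adjusted p = 0.0088 in limma). Fras1 and Frem2, which anchor the epidermis to the dermis in the embryo, fell by 1.43 ± 0.77 and 0.78 ± 0.43 on the log2 scale (SD, n = 2). Frem2 passed close to the threshold (adjusted p = 0.046 in limma). Tnxb, a tenascin that organises dermal collagen, fell by 1.08 ± 0.41 (SD, n = 2), with the SOX11-induced pup of pair 1 not well above background. Efemp1, a fibulin, and Npnt, an integrin α8 ligand of the hair follicle basement membrane, were at least 1.59-fold and 1.42-fold lower. Of 26 partners of hyaluronan and proteoglycans, none rose and 3 fell, namely Hspg2 (perlecan, -1.11 ± 0.49), Dcn (decorin, -0.79 ± 0.24) and Bcan (brevican, at least 1.71-fold lower), and the list median was -0.02.

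Of 18 receptors, 1 rose and none fell, with a median of 0.04. This was Itgb1, the β1 integrin chain of fibronectin receptors, at a mean log2 ratio of 0.90 ± 0.10 (SD, n = 2; adjusted p = 0.013 in limma), while its other probe, at 0.51, did not pass. Of the integrin α chains listed, Itga4, Itga5 and Itga8 were at background in every channel. Itga9 was above background only in the SOX11-induced pup of pair 2. Itgav and Itga3 were above background in every channel. Their mean log2 ratios of -0.05 and -0.67 did not pass (adjusted p = 0.89 and 0.093 in limma). Among 30 proteases and inhibitors, 4 rose and 1 fell, with a median of 0.23. Among those that rose, Plat, a plasminogen activator, had a mean log2 ratio of 1.26 ± 0.71 (SD, n = 2), Mmp2, a gelatinase, one of 1.25 ± 0.01, and Serpinb2, a clade B serpin, one of 0.68 ± 0.25. Serpinb2 passed close to the threshold (adjusted p = 0.048 in limma). Adamts9, a secreted protease that cuts versican, was called lower at -1.72 ± 0.18 (adjusted p = 0.00051 in limma), while its dimmer probe, at -0.44, did not pass.

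TGF-β signalling genes moved both ways, with 3 of 22 higher, 5 lower and a median of -0.04. Smad3, a mediator of the TGF-β receptor, rose by 1.40 ± 0.53, Tgif1, a repressor of SMAD targets, by 1.29 ± 0.21, and Smad4, the shared SMAD partner, by 0.67 ± 0.13 on the log2 scale. Ltbp3, Ltbp1 and Ltbp4, which tether latent TGF-β to the matrix, fell by 1.30 ± 0.31, 1.27 ± 0.42 and 0.97 ± 0.18. Tgfbr3, a co-receptor also called betaglycan, fell by 1.05 ± 0.29, and Inhbb, an activin subunit, by 0.72 ± 0.34. Smad4 and Inhbb passed close to the threshold (adjusted p = 0.043 and 0.0496 in limma). With median spot brightness or the series table, 6 of the 8 genes passed. Under median centring 10 genes of this list were higher and 3 lower. Of 22 cross-linking and secretion genes, 2 fell, Fam20c (a kinase of secreted proteins, -0.80 ± 0.11) and Leprel1 (a prolyl hydroxylase, at least 1.39-fold lower), and none rose. Leprel1 also passed close to the threshold (adjusted p = 0.044 in limma). Of 24 collagen chains, 1 rose and 2 fell. Col5a2 was called higher and stands as at least 3.23-fold higher, since its controls were not well above background, Col16a1 was called lower at -1.82 ± 0.18, and Col17a1, the hemidesmosomal collagen, fell by 1.10 ± 0.31.

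**Figure D5:**
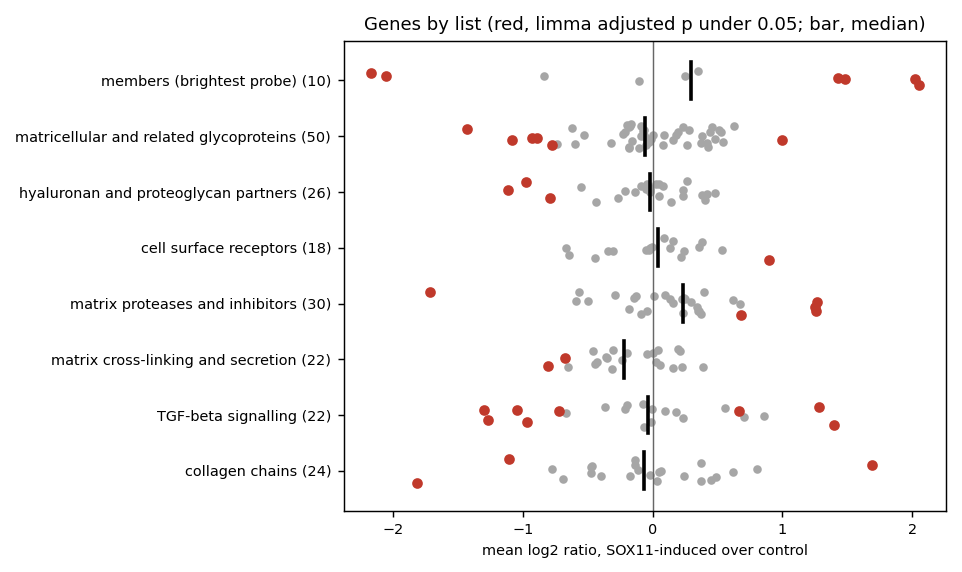
The mean log2 ratio of each gene by its brightest probe (x axis) is plotted for the members and the 7 lists (rows, with the number of genes), red where the limma adjusted p was under 0.05 and grey otherwise, with a bar at the median. Members with red points lie beyond 1.4 on either side, and the medians of the 7 lists lie between -0.22 and 0.23.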

How the data were processed

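Agilent 2-colour arrays of 2 littermate pairs were used. The deposited intensity values are spot and local background brightness from Feature Extraction 10.7.3.1 per the file headers, and log2 ratios deposited by the authors for the whole series served as an alternative. Processed signals are intensity values that the deposited files give after the scanner software's own correction. The fit used limma 3.58.1 (R 4.3.3). Mean spot brightness was corrected by normexp (offset 16) and loess. Control spots were then dropped, flagged outlier spots (194 and 186) left out and spots averaged, and an intercept model with eBayes (prior SD 0.223, 8.14 degrees of freedom) and Benjamini-Hochberg adjustment was fitted to 55676 probes. Each array is 1 pair, so ratios are paired differences. Channel brightness was taken after Aquantile. A bound on a fold sets the brighter channel against, on each array, the lowest signal well above background or the dim channel itself, whichever was higher. Precision is limited by the number of arrays. The p-values combine the spread between the 2 pairs with the variance that limma shares across probes, with more weight on the latter. The code was tested on simulated data drawn from the fitted prior, which does not test that prior. Members and lists were chosen with earlier results of these data known. All member probes, and from each list at most 8 genes with an adjusted p under 0.05, were named, except 1 gene that is counted but not reported here. Alternatives covered offset, spot summary, scaling, dim probes, outlier flags, prior, threshold and each array alone.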

Additional observations from a re-analysis of the deposited data

How the results depend on the processing

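With median centring, 5 member probes were called higher and 0 lower, and over all probes 794 higher and 9 lower, so that 98.9% of calls were higher against 80.9% in the reported fit. With the processed signals of the scanner software, 0 member probes and 0 of all probes were called in either direction, although 8 member probes and 9764 of all probes had an unadjusted p under 0.05 and the lowest adjusted p of a member was 0.24 in limma. With an intensity trend and robust prior, 2 member probes were called higher and 1 lower, as Pxdn probe 3 (adjusted p = 0.30) and Tgfbi (0.14) no longer passed, nor did Fn1 (0.39), which was not called before. Restricted to probes above background, the adjusted p of Fn1 was 0.057 and that of Pxdn probe 2 was 0.060, beside 0.075 with median spot brightness and 0.074 with the series table. An offset of 50 gave 31 lower calls over all probes. A linear 1.5-fold threshold gave 6 higher member probes, and 1614 higher and 754 lower over all. The mean log2 ratio of Pxdn probe 1, at background, turned to -0.035 with median spot brightness and with the series table, -0.23 with median centring and -0.11 with processed signals, and that of Sparc turned to 0.68 with median centring. The cause was not tested.

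The median over the member probes was 0.18 with an offset of 50, 0.27 with median spot brightness and with the series table, 0.54 with median centring, 0.59 with processed signals and 0.67 over probes above background, and lay between 0.30 and 0.40 for either array alone. The median over the pooled lists was -0.0096, -0.00097 (both of the latter 2 sources), 0.13 and -0.099 in the same order, -0.012 over probes above background, -0.014 with outlier spots kept, -0.0036 as the mean of a gene's probes above background, and lay between -0.016 and -0.013 for either array alone. Giving control spots no weight in loess, chosen after seeing the data, left the calls of the members at 3 and 2. Each array is 1 littermate pair, so every fit was on paired differences, and no fit without the pairing was run.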
